A study of Gallus gallus with 15 samples.

Results

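The 150 transcripts described here varied most from pool to pool among the 5 oil-treated controls of a study of the hen's germinal disc region. Levels are CPM, a gene's counts per 1000000 counts of its library. The 100 genes of highest mean CPM over all 15 libraries were set aside, and 8649 of the 24881 genes in the table then averaged 10 CPM or more in controls. From these, the 150 with the largest standard deviation (SD) of log2(CPM + 0.5) over the 5 control pools were taken. The spread in controls therefore chose the genes and is given only as a description, whereas the hormone-treated pools played no part in ranking that spread.

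White Leghorn layers were injected 5 h ahead of their predicted ovulation, and the germinal disc region of the largest preovulatory (F1) follicle was collected roughly 1.5 h afterwards, when ovulation was 3.5 h away. Corticosterone hens were given 1.5 mg of the avian stress steroid in 0.5 ml of peanut oil, testosterone hens 1.5 mg of the androgen in the same volume, and control hens 0.5 ml of the oil only. Each of the 3 groups had 5 libraries, and each library held RNA pooled from several hens, 8 per pool by the source names and 9 by the extraction protocol. Because hens were pooled, the spread below is between pools, and every p-value measures only that spread.

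The germinal disc is a pale spot of cytoplasm at the surface of the yolk, where the oocyte's nucleus lies under the granulosa layer. In the hours before ovulation the follicle is exposed to the surge of luteinizing hormone, the oocyte resumes meiosis, and granulosa cells change their steroid output and gene expression. The deposited identifiers are not paired with gene names in the files used here, and the reference table matched 0 of the 24881. No gene can be named by symbol, no role is given to any member, and the tissue could not be checked against marker genes. In bulk RNA, fewer cells of a type and less RNA per cell cannot be told apart.

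Depth was 12913729 counts in testosterone replicate 5 and between 24550108 and 33795073 in the other 14 libraries. Corticosterone replicates 1 and 2 and testosterone replicate 2 also stood apart, with 27, 24 and 11 genes raised 4-fold or more over the median of the libraries. None of these was a member, but only 2 of the 32 raised in either corticosterone library and 0 of the 11 raised in testosterone replicate 2 were eligible under the rule. Control replicate 1 had 2 such genes, both of them members, and the remaining libraries had 0.

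The members were of moderate abundance. Their control means ran from the floor of 10 CPM to 723 CPM with a median of 31.4 CPM, against 46.7 CPM over the 8649 eligible genes. Their SD in controls ran from 0.32 to 1.59 log2 units, with a median of 0.40 against 0.10 for all eligible genes. Counting error alone would give a median SD of 0.049 log2 units for the members, and at most 0.087. The last gene inside the threshold had an SD of 0.3218 and the first outside had 0.3208, so the boundary marks no break. For 10 members (6.67%) a single control pool lay far from the other 4 (by Dixon's gap test at the 95% level), against 4.90% of eligible genes.

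Among the members, 4 are shown in full, the 2 of largest control SD on each side of the main axis of variation among controls described below. ENSGALG00000000433 was the most variable. Its level was 20.3, 18.8, 20.9, 1.17 and 15.9 CPM in control pools 1 to 5, 4.97, 24.7, 1.70, 26.1 and 22.0 CPM in corticosterone pools 1 to 5, and 4.56, 3.23, 4.58, 23.8 and 36.1 CPM in testosterone pools 1 to 5. The pools fell into a low range, 1.17 to 4.97 CPM in 6 pools, and a high range, 15.9 to 36.1 CPM in 9 pools, with none between. The high range held 4 control, 3 corticosterone and 2 testosterone pools, so both ranges occurred under every treatment. Its SD in log2 units was 1.59 for the oil pools, 1.62 for the corticosterone pools and 1.51 for the testosterone pools.

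ENSGALG00000014786 was second. Its level was 41.9, 29.4, 9.08, 3.84 and 7.85 CPM in controls, 22.1, 32.9, 4.43, 4.69 and 5.29 CPM after corticosterone, and 16.7, 11.1, 4.50, 5.73 and 9.76 CPM after testosterone. Pools numbered 1 and 2 were the highest in each group, and the groups overlapped throughout. The highest control pool was 10.9 times the lowest, and the same ratio was 7.42 among corticosterone pools and 3.70 among testosterone pools.

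ENSGALG00000046089 stood at 22.8, 32.8, 31.3, 23.5 and 8.28 CPM in controls, 26.2, 14.5, 15.7, 33.6 and 18.7 CPM after corticosterone, and 11.1, 28.3, 31.4, 13.0 and 23.2 CPM after testosterone. Control pool 5 was its lowest value of all, and the other 14 pools ran from 11.1 to 33.6 CPM. ENSGALG00000017229 stood at 8.59, 16.1, 11.2, 30.8 and 22.0 CPM in controls, 9.01, 5.09, 15.5, 9.59 and 23.6 CPM after corticosterone, and 11.9, 8.37, 24.8, 25.9 and 17.9 CPM after testosterone. Groups overlapped for both genes, and edgeR's adjusted p was 0.726 or more for each of the 4 genes in every comparison of treatments.

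**Figure D1:**
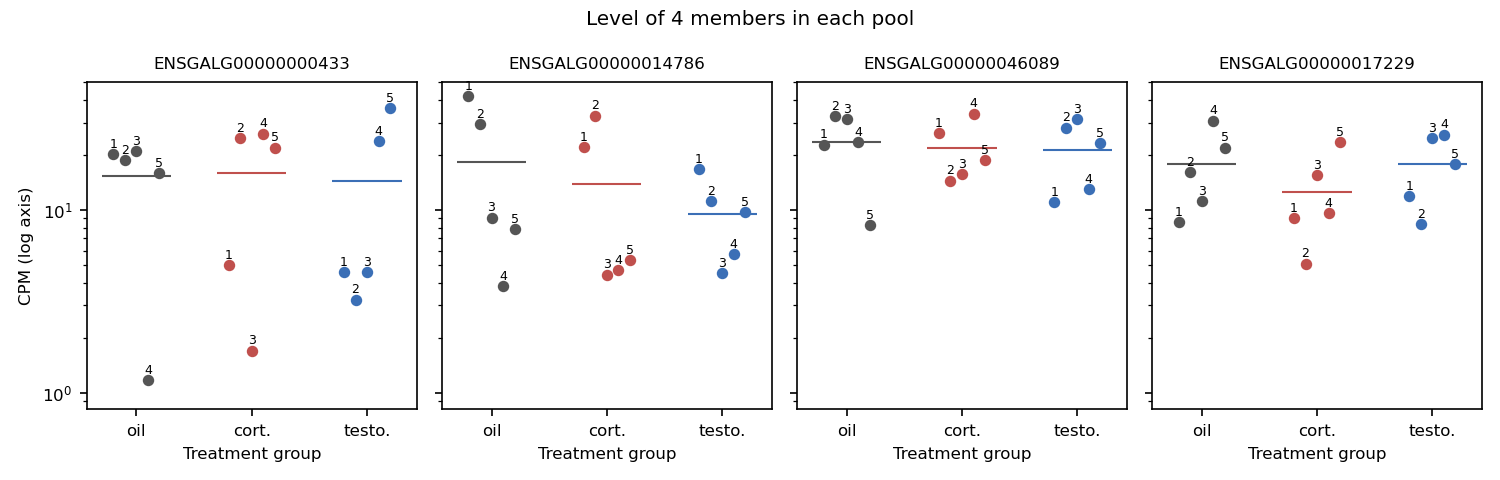
CPM (log axis) of the 4 named members in every pool, grouped by treatment; points carry the replicate number and lines mark group means. ENSGALG00000000433 lies either between 1.17 and 4.97 CPM or between 15.9 and 36.1 CPM in each group, and the groups overlap for all 4 genes.

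The spread seen in controls recurred in pools that had no part in ranking it. Of the 150 members, 64 (42.7%) were also among the 150 most variable eligible genes of the corticosterone pools, and 61 (40.7%) among those of the testosterone pools, where 150 genes are 1.73% of the 8649. In all, 34 members were in both of those lists, 91 in at least one and 59 in neither. The SD of a member lay above the median of eligible genes for 148 members after corticosterone and for 146 after testosterone. The median member was at percentile 97.5 of eligible genes after corticosterone and 97.4 after testosterone. These are counts of shared genes, with no test. Without corticosterone replicates 1 and 2 the first count was 59, and without testosterone replicate 5 the second was 51.

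The size of the spread was mostly smaller in the hormone pools than in the controls that had selected it. The median SD of the members was 0.35 log2 units after corticosterone and 0.29 after testosterone, against 0.40 in controls. A member's SD reached or passed its own control value for 59 members after corticosterone and for 22 after testosterone. For eligible genes as a whole the median SD was 0.11 and 0.10 log2 units in the 2 hormone groups. Variation as wide as that of the last member inside the threshold was seen after corticosterone in 88 members and 194 other eligible genes, and after testosterone in 60 members and 85 others. Not every member recurred, as the lowest were at percentile 30.5 after corticosterone and 15.7 after testosterone.

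**Figure D2:**
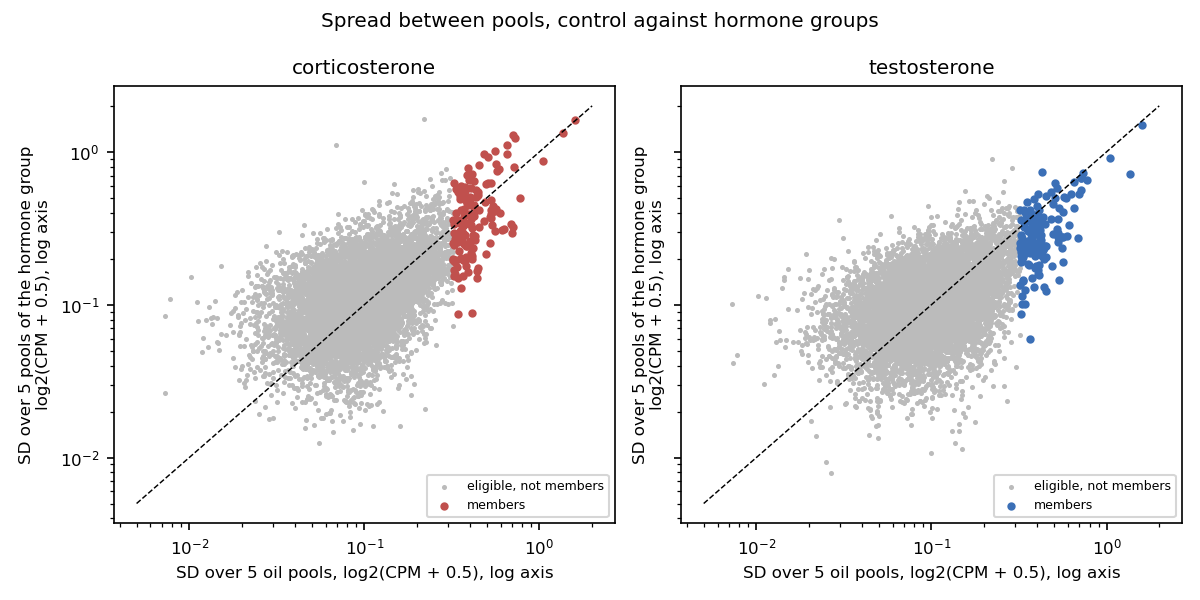
SD of log2(CPM + 0.5) over the 5 oil pools (horizontal) against the SD over the 5 corticosterone or testosterone pools (vertical), both on log axes, with members coloured, other eligible genes grey and a dashed line of equality. Members start at 0.32 on the horizontal axis by the rule, and 148 and 146 of them lie above the median eligible gene on the vertical axis.

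The members did not vary independently. Grouping them by the likeness of their control profiles (average-linkage clustering on 1 minus Pearson's r, cut into 6 branches after the data were seen) gave sets of 79, 35, 14, 12 and 9 genes, here sets A to E, and 1 gene alone. The sets are described by each pool's mean deviation, in log2 units, from the mean of its own treatment group. Deviations in controls reflect how the sets were made. The hormone pools did not enter the clustering, but the number of branches was chosen when their values had been seen.

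Set A, the largest, had deviations of 0.43, 0.06, -0.53, -0.14 and 0.18 in control pools 1 to 5. All 79 of its genes were above their mean in control pool 1 and 0 of 79 in control pool 3. Set B stood at -0.41, -0.25, 0.51, -0.06 and 0.22, with all 35 of its genes above their mean in control pool 3. Sets A and B thus had opposite signs in control pools 1, 2 and 3 and the same sign in the other 2, and in control pool 5 most genes of both sets, 59 of 79 and 29 of 35, were above their mean. In CPM, the median gene of set A stood at 45.1 in control pool 1 and 23.8 in control pool 3, and the median gene of set B at 26.2 and 47.9.

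Sets A and B also moved in opposite directions in most hormone pools. After corticosterone, set A deviated by -0.04, 0.20, 0.11, -0.36 and 0.08 and set B by 0.20, -0.46, -0.13, 0.33 and 0.06 in pools 1 to 5. In corticosterone pool 4, 7 of 79 set A genes and 29 of 35 set B genes were above their group mean. In corticosterone pool 2, the reverse, these numbers were 59 and 9. After testosterone, set A deviated by 0.06, -0.11, 0.13, 0.22 and -0.31 and set B by -0.04, 0.08, -0.12, -0.23 and 0.30. Testosterone pool 5 had 10 of 79 set A genes and 28 of 35 set B genes above their mean, and testosterone pool 4 had 70 and 6. The means of sets A and B had opposite signs in 3 of the 5 control pools and in 9 of the 10 hormone pools, in 8 of 9 without testosterone replicate 5, and in 6 of 7 without corticosterone replicates 1 and 2 and testosterone replicate 2.

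The most variable gene of set B, rank 7 among the members, shows the pattern in a single transcript. It stood at 10.7, 14.3, 38.7, 19.1 and 26.3 CPM in controls, 19.6, 3.26, 17.6, 42.0 and 20.1 CPM after corticosterone, and 17.3, 23.7, 14.9, 12.5 and 42.4 CPM after testosterone. The pools that were highest in each group, control 3, corticosterone 4 and testosterone 5, were at 38.7 to 42.4 CPM, and the groups overlapped. These were also the pools in which set A minus set B was lowest, at -1.04, -0.69 and -0.60 log2 units. The gene belongs to set B and so enters that measure. Not every set B gene was high there, as 29 of 35 were above their mean in corticosterone pool 4 and 28 of 35 in testosterone pool 5. Total counts were 29079294, 33464398 and 12913729 in control pool 3, corticosterone pool 4 and testosterone pool 5. The 100 most abundant genes took 25.9%, 25.0% and 26.3% of these counts, against 24.1% to 28.4% over all libraries. The part of depth and of RNA composition in this pattern was not tested.

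Set C, which holds the 2 most variable members, deviated by 0.53, 0.31, 0.12, -0.93 and -0.02 in controls. After corticosterone it deviated by 0.65, 0.84, -0.84, -0.29 and -0.36, a wider swing than in controls, and after testosterone by 0.33, 0.09, -0.45, -0.24 and 0.27. Its 14 genes were the most recurrent of the sets, with 13 among the 150 most variable genes after corticosterone, 10 after testosterone and 10 in both lists. For set A these numbers were 23, 26 and 6 of 79, and for set B 20, 16 and 14 of 35. Corticosterone replicates 1 and 2, which stood apart in the whole data, were the pools highest in set C, and their part in its spread was not tested.

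Set D was high in control pool 4, where all 12 of its genes were above their mean (deviation 0.45), and low in control pool 3 (-0.44). Its mean had the opposite sign to that of set C in 4 of 5 control pools and 9 of 10 hormone pools. Set E, 9 genes high in control pool 2 (0.48) and low in control pool 5 (-0.43), deviated by no more than 0.20 in any corticosterone pool and by 0.25 or less in any testosterone pool.

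**Figure D3:**
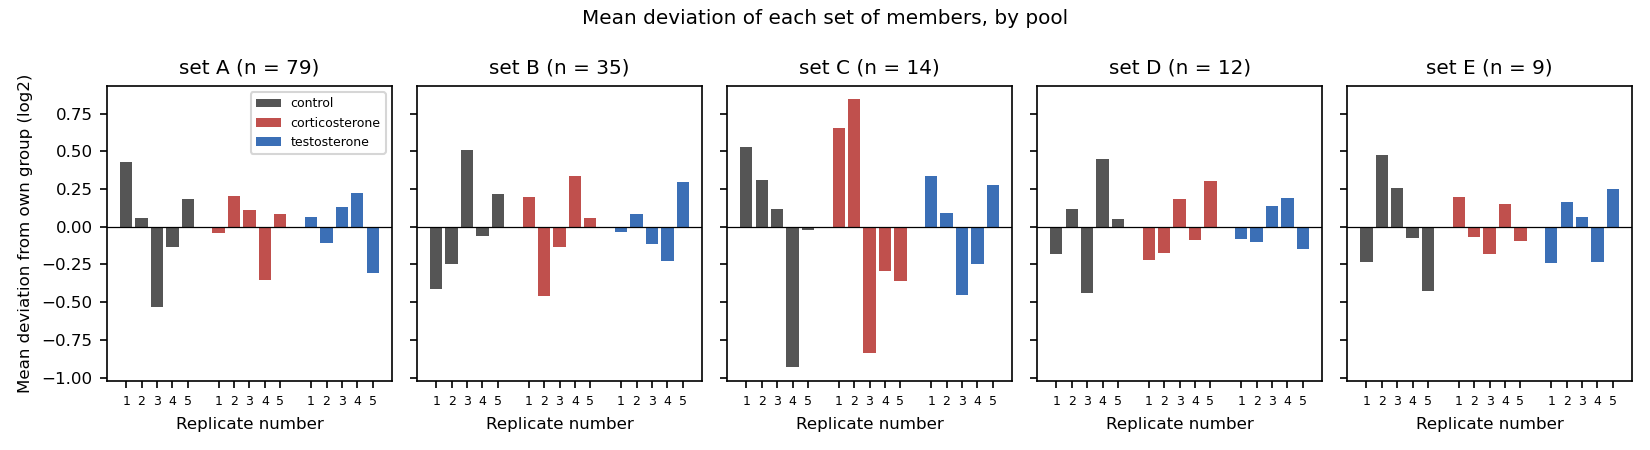
Mean deviation of sets A to E from their own treatment group, in log2 units, for each pool by replicate number; bars start at 0 and colours mark the treatment. Sets A and B point in opposite directions in 9 of the 10 hormone pools, and set C is above 0 in every pool numbered 1 or 2.

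How much of a set's variation its mean carried gives the strength of the co-movement. This share is complete when all genes move by the same amount, and near 1.27% for 79 unrelated genes, 2.86% for 35, 7.14% for 14, 8.33% for 12 and 11.1% for 9. In controls, where the sets were made, it was 66.0%, 71.8%, 61.2%, 62.6% and 56.1% for sets A to E. After corticosterone it was 34.2%, 32.6%, 63.1%, 35.5% and 13.5%, and after testosterone 40.4%, 32.7%, 32.5%, 22.9% and 33.2%. The shares in hormone pools were thus above those of unrelated genes for sets A to D in both groups, while set E after corticosterone was near it. Eligible genes are not unrelated, as the mean of all of them carried 6.26% of their variance after corticosterone and 1.70% after testosterone. No share was worked out for other eligible genes grouped in the same way. Whether the shares are particular to these sets was therefore not tested. Single libraries carried much of some shares. Set A fell to 11.2% after corticosterone without corticosterone replicate 4, and to 25.4% after testosterone without testosterone replicate 5, where set B fell to 20.8%. Set C fell to 19.3% after testosterone without testosterone replicate 3. Set E went the other way after corticosterone, rising to 23.4% without corticosterone replicate 2. These shares are descriptions, since the genes of a set share the same 5 libraries.

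**Figure D4:**
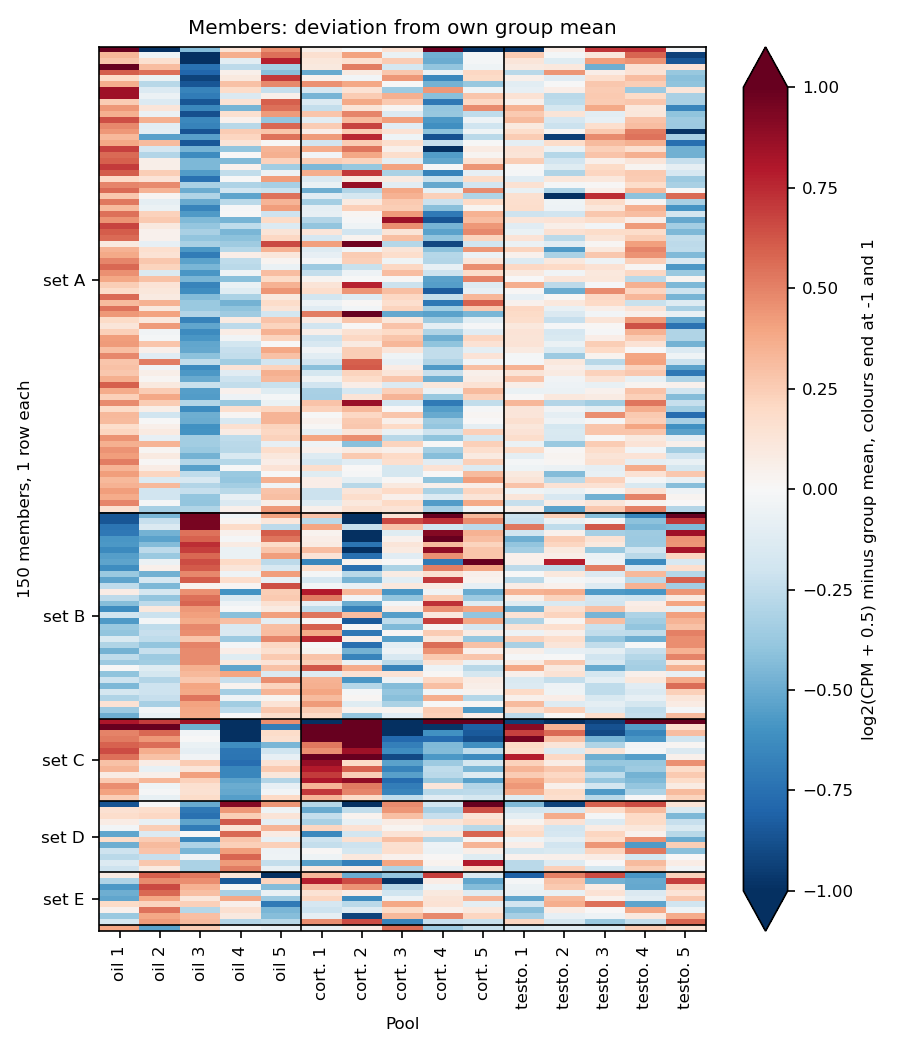
Deviation of each of the 150 members (rows, grouped by set, with the ungrouped gene last) from its own group mean in each of the 15 pools (columns), as log2(CPM + 0.5); colours end at -1 and 1. Blocks of red and blue in control pools 1 and 3 change sign between sets A and B, and the same contrast is seen in corticosterone pools 2 and 4 and testosterone pools 4 and 5.

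Pairs of members that moved together in controls also mostly moved together in the hormone pools, with no sets formed. The 11175 pairs were sorted by Pearson's r over the 5 control pools, a measure on 5 points that serves only to order them, and then read in the 10 hormone pools after removing each group's mean. Of the 1845 pairs with a control r of 0.8 or more, 87.6% had a positive r in the hormone pools. The share was 74.7% for a control r from 0.5 to 0.8, 55.0% from 0 to 0.5, 33.5% from -0.5 to 0, 21.3% from -0.8 to -0.5 and 29.9% at -0.8 or below, against 52.7% over all pairs. Over all pairs of eligible genes the share was 77.3% at 0.8 or more, 43.0% from -0.8 to -0.5 and 38.0% at -0.8 or below, against 56.4% over all of them, so it fell at every step, whereas among members it was lower from -0.8 to -0.5 than at -0.8 or below. Pairs share genes and libraries, so their number is not a number of independent observations.

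The recurrence was seen in each hormone group alone. Of the pairs with a control r of 0.8 or more, 84.8% had a positive r among corticosterone pools and 85.5% among testosterone pools. Without testosterone replicate 5 the share was 87.0%, and without corticosterone replicates 1 and 2 and testosterone replicate 2 it was 89.7%. It rested in part on control pool 3, since sorting pairs by the other 4 control pools gave 70.2%, with 40.7% from -0.8 to -0.5 and 40.04% at -0.8 or below. Leaving out control pool 1 gave 87.6%, 27.7% and 30.1%. The 70.2% was below the 77.3% of all eligible pairs sorted on all 5 control pools. No share over all eligible pairs was worked out for the settings of this paragraph. Whether the recurrence there exceeded that of eligible genes was therefore not tested.

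**Figure D5:**
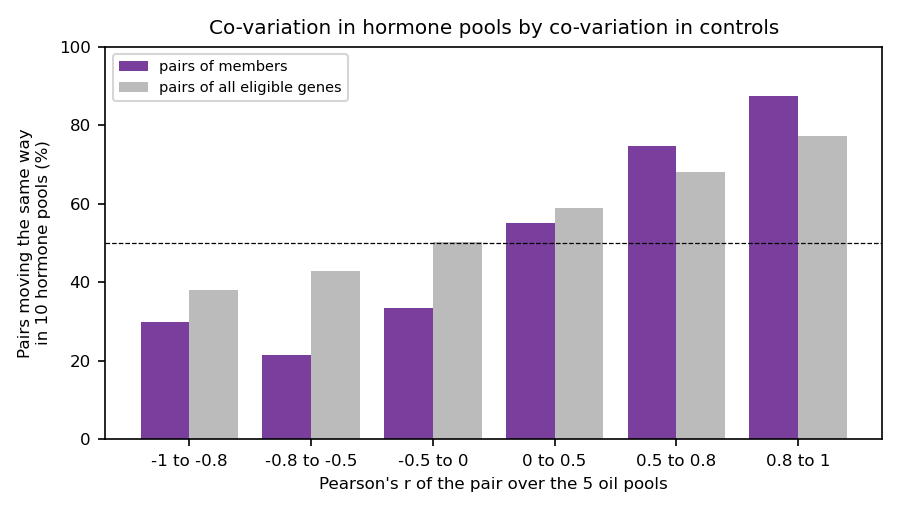
Percent of gene pairs with a positive r over the 10 hormone pools (vertical, group means removed), by the pair's Pearson's r over the 5 oil pools (horizontal); purple bars are pairs of members, grey bars pairs of all eligible genes, and the dashed line is at 50%. The share for members runs from 21.3% to 87.6%, and from 40.04% to 70.2% when control pool 3 is left out of the sorting.

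A single axis did not sum up the members in all groups. The first principal component of the members held 50.7% of their variance in controls, 55.9% after corticosterone and 47.4% after testosterone. For all eligible genes it held 51.1%, 51.4% and 49.3%, so the share was not particular to the members. The control component itself carried 23.9% of the members' variance after corticosterone and 18.1% after testosterone. It put 50 members on one side and 100 on the other. Of the 150, 122 kept their side on the first component of the testosterone pools and 98 on that of the corticosterone pools, where the arbitrary sign makes 75 the least possible count. Among eligible genes 57.9% kept their side after testosterone and 61.9% after corticosterone. The corticosterone count of 98 of 150 was thus near the share of all eligible genes. Leaving out 1 library at a time moved the counts between 98 and 134 for testosterone and between 78 and 112 for corticosterone. The corticosterone count was 124 without corticosterone replicates 1 and 2 together and 121 with every member at unit variance, so the lower count after corticosterone rested on those choices.

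Treatment was compared for the members within a fit of all 14260 genes that passed edgeR's low-count filter, which all 150 members passed. With edgeR's quasi-likelihood test, 0 members had an adjusted p under 0.05 for corticosterone against control, testosterone against control, corticosterone against testosterone or any difference among the 3 groups, and the background share of all genes was 0.0% in each. DESeq2 called 0 members in the pairwise comparisons and 1 for any difference. Of the 24881 genes given to it, it called 13, 0, 56 and 48 in the order just given. The number it tested after its own filtering was not recorded, so no share of tested genes is given. The comparisons with oil share their controls, which chose the members by spread and by a floor on the control mean. That floor favours genes that were high in controls. The hormone pools entered the rule only through the mean over all 15 libraries that set aside the 100 most abundant genes.

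For corticosterone against testosterone, 10 members (6.67%) had an unadjusted p under 0.05, against 6.37% of all genes. Of these, 9 were lower after corticosterone (4.31% of all genes were) and 1 was higher (2.06%). The member of smallest p, rank 71 and in set A, stood at 127, 146, 186, 130 and 171 CPM after corticosterone and 245, 224, 247, 266 and 177 CPM after testosterone. Only testosterone pool 5 lay within the corticosterone range. The difference was -0.66 ± 0.19 on the log2 scale (SE, adjusted p = 0.452 by edgeR). The 1 higher member was rank 19, in set C, with a log2 fold change of 0.81 (edgeR adjusted p = 0.780). The median log2 fold change of the members was -0.10, with 98 lower and 52 higher. Over all genes it was 0.00, and 49.3% were lower. Set A had 61 genes lower and 18 higher. Genes of a set moved together from pool to pool, so these counts are not of independent observations. All 14 genes of set C were higher after corticosterone than after testosterone, by a median of 0.22 log2 units, and 1 of them had an unadjusted p under 0.05. This direction rested on corticosterone replicates 1 and 2, without which the median was -0.23 and 2 of the 14 were higher. Without corticosterone replicates 1 and 2 and testosterone replicate 2, the count of 10 fell to 3. The count over all genes fell from 909 of 14260 to 579 of 14414.

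For corticosterone against control, 8 members (5.33%) had an unadjusted p under 0.05 against 9.44% of all genes, 7 of them lower (5.7% of all genes were) and 1 higher (3.74%). For testosterone against control there were 2 (1.33%) against 3.4%, both lower (1.54% of all genes), at ranks 47 and 99, and 0 higher (1.86%). For any difference among the 3 groups there were 7 (4.67%) against 6.58%. The gene at rank 47, in set E, had the smallest p of the members in each of these comparisons. It stood at 14.2, 30.2, 24.9, 15.9 and 19.2 CPM in controls, 15.0, 14.3, 11.7, 14.5 and 12.4 CPM after corticosterone, and 12.9, 12.9, 15.0, 12.2 and 15.0 CPM after testosterone. Control pools 2 and 3 were the highest and control pool 1 lay within the range of the hormone pools. Its difference from control on the log2 scale was -0.68 ± 0.16 for corticosterone (SE, edgeR adjusted p = 0.447) and -0.63 ± 0.16 for testosterone (SE, edgeR adjusted p = 0.999). It was also the 1 member DESeq2 called for any difference (DESeq2 adjusted p = 0.00989, edgeR adjusted p = 0.398). The control values that made this gene a member by their spread also enter these comparisons, so its p-values are given as a description. The third most variable member, in set A, averaged 11.3 ± 7.84 CPM in controls, 4.32 ± 2.71 after corticosterone and 5.50 ± 2.86 after testosterone (SD, n = 5). It passed the floor of 10 CPM through its control pools, so its higher control mean is part of the choice and is given as a description. The count of 8 ranged from 4 without corticosterone replicate 2 to 31 without control replicate 3, and the count of 2 from 1 to 6. For corticosterone against control, all genes gave 872 of 14373 without corticosterone replicate 2 and 1653 of 14332 without control replicate 3. For testosterone against control, they gave 458 of 14327 and 484 of 14393 without testosterone replicates 1 and 3. Without control replicates 3 and 4 they gave 608 of 14332 and 707 of 14384.

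Precision was limited by the spread that defines these genes. The median standard error of a member's log2 fold change was 0.23, against 0.091 over all genes, in corticosterone against testosterone and in corticosterone against control. Together the members made up 8438 ± 838 CPM in controls, 8074 ± 602 after corticosterone and 8328 ± 290 after testosterone (SD, n = 5), and the ranges overlapped.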

How the data were processed

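RNA of pooled germinal disc regions was sequenced in 15 libraries. Values are whole-number read counts, as deposited by the authors, for 24881 Ensembl chicken identifiers. The submitters' processing notes name TopHat2 2.0.14 with HTSeq 0.6.1p1, and per the labels' protocols the libraries were made with a TruSeq kit that keeps strand. The sources used here do not give the build, annotation or strand setting of the counting, so reads of overlapping, antisense or near-identical genes may be assigned to another gene.

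CPM used the column totals, and spread is the SD of log2(CPM + 0.5). Components, clustering (SciPy 1.17.1) and pair measures used values centred on each treatment group. Treatment was tested with edgeR 4.0.16 in R 4.3.3 (filterByExpr, TMM, robust quasi-likelihood fit, 1 mean per group, all 15 libraries, Benjamini-Hochberg over 14260 genes, threshold 0.05), a test that was checked on simulated data. Standard errors were derived from the F statistic.

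The members and comparisons were chosen with earlier results of these data known. As no identifier could be named, the rule for named genes gave 4 identifiers, the 2 of largest control SD on each side of the first control component, and gene lists could not be used. Alternatives were RLE or no scaling, no low-count filter, a fit without robust estimation, the replicate number as a block, DESeq2 1.42.0, other pseudocounts, floors and measures of spread, and leaving out each library. The sets, the pair measure and the fits without several libraries were chosen after seeing the data. Depth, from 12913729 to 33795073 counts, gives the members a median counting SD of 0.049 log2 units in controls and 0.076 in testosterone replicate 5.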

Additional observations from a re-analysis of the deposited data

Results flagged for a closer look

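Of 42 groups of 5 values examined for a pool far from the rest, 4 were found. About 2.1 would be found among 42 unrelated groups, but these groups are related, so the numbers cannot be compared. The named genes were chosen for their control spread, and the flags other than that of ENSGALG00000000433 all come from testosterone pool 5. ENSGALG00000000433 was at 1.17 CPM in control pool 4, far below the next lowest control at 15.9 CPM. The members summed to 7819 CPM in testosterone pool 5, below the next lowest testosterone pool at 8416 CPM. That pool also had the lowest total count, 12913729 against 25979882 in the next, and the fewest genes with a count, 17032 against 17855. The part of its depth in the summed level of the members was not tested.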

How the results depend on the processing

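Leaving out 1 library at a time gave 49 to 68 genes shared with the corticosterone list and 49 to 65 with the testosterone list. Other settings gave 59 to 67 and 57 to 69. The 150 were chosen anew except where hormone libraries were left out, which gave 54 to 68 and 51 to 61 members. Of the 150 members, 101 were chosen again without control replicate 3 and 114 without control replicate 1. With floors of 5 and 30 CPM, 95 and 76 were.

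Over 21 alternative fits and 4 tests, no member was called in 83 of 84 results, the exception being 1 member with DESeq2 for any difference. The counts at an unadjusted p under 0.05 were less steady, and the cause was not tested. For corticosterone against control, 8 became 17 without robust estimation, 14 with DESeq2 and 4 to 31 when 1 library was left out (5, 31 and 19 without control replicates 1, 3 and 4, 4, 13 and 20 without corticosterone replicates 2, 3 and 5, 13 without testosterone replicate 5). Over all genes, 1346 of 14260 became 1391 of 14260 without robust estimation and 1450 with DESeq2. They became 825 of 14388, 1653 of 14332 and 1763 of 14384 without control replicates 1, 3 and 4. Without corticosterone replicates 2, 3 and 5 they were 872 of 14373, 1343 of 14332 and 2042 of 14395. Without testosterone replicate 5 they were 1507 of 14372. The share of members was below that of all genes in the main fit, but above it without robust estimation, control 3 or control 4. For testosterone against control, 2 became 4 without robust estimation and 1 to 6 when 1 library was left out (4, 6, 6 and 5 without control replicates 1, 3, 4 and 5, 4 without corticosterone replicate 2, 1 without testosterone replicate 1 or 3). Over all genes, 485 of 14260 became 498 without robust estimation, 458 of 14327 without testosterone replicate 1 and 608 of 14332 without control replicate 3. For corticosterone against testosterone, 10 became 6 to 16 (6 and 16 without corticosterone replicates 2 and 3, 6 without testosterone replicate 1, 3 or 4), and 3 without corticosterone 1, corticosterone 2 and testosterone 2 together. Over all genes, 909 of 14260 became 613 of 14373 and 1039 of 14332 without corticosterone replicates 2 and 3. They became 858 of 14327, 840 of 14393 and 650 of 14322 without testosterone replicates 1, 3 and 4. Without the 3 libraries left out together, they were 579 of 14414.

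With the replicate number as a block, 5 members had an unadjusted p under 0.05 for testosterone against control in place of 2. The share of members was below that of all genes in this comparison, both with the block and without it. No member was called with the block. Over all genes, 4 were called for corticosterone against testosterone and 1 for any difference, in place of 0. The labels do not say that equal numbers pair the pools, and over all genes the 15 pairs of equal number had correlations of their deviations from -0.183 to 0.226, 4 of them over 0.1. For ENSGALG00000000433 the log2 fold change of testosterone against control, -0.18, ranged from -0.758 to 0.0918 when 1 library was left out and turned positive without testosterone replicates 1, 2 and 3 (0.07, 0.09 and 0.06, at an edgeR adjusted p of 0.999 or more). The median of set C for corticosterone against testosterone, 0.22, turned to -0.23 without corticosterone replicates 1 and 2 and to -0.19 when testosterone replicate 2 was left out too.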

Other observations

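The mean of set C, the 14 genes that include ENSGALG00000000433 and ENSGALG00000014786, lay above the group mean in 6 of the 6 pools numbered 1 or 2, between 0.09 and 0.84 log2 units. It lay above it in 1 of the 6 pools numbered 3 or 4, which ran from -0.93 to 0.12, and in 1 of the 3 pools numbered 5. Nothing in the labels ties a replicate number to a day or flock. The pattern was noticed after the values were seen and was not tested. It is one of the set mean, and ENSGALG00000000433 did not follow it in most hormone pools numbered 1 to 4. That gene was low in corticosterone pool 1 and testosterone pools 1 and 2 (4.97, 4.56 and 3.23 CPM). It was high in corticosterone pool 4 and testosterone pool 4 (26.1 and 23.8 CPM). Corticosterone pools 2 and 3 and testosterone pool 3 (24.7, 1.70 and 4.58 CPM) went with the set.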
